A study of Mus musculus with 6 samples.

Results

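Replication-dependent histone genes encode the proteins that package newly made DNA. They were chosen here as every gene of the deposited count table whose symbol begins with Hist1h, Hist2h, Hist3h or Hist4h, which gave 57 of 15898 listed genes. The set held 5 genes of the linker histone H1, 14 of H2A, 17 of H2B, 10 of H3 and 11 of H4. Of the genes with such a symbol in the GENCODE M21 annotation, 70 in all, the other 13 were not analysed here.

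Replication-dependent histone mRNAs are made in S phase, when the cell copies its DNA, and are degraded when synthesis stops. Most of them end in a short stem-loop in place of a poly(A) tail. The stem-loop binding protein and the U7 small nuclear ribonucleoprotein direct the cut that forms this end. Libraries primed on poly(A) therefore capture such transcripts only in part, and a few members are known to give polyadenylated forms as well.

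The samples were 4 IL-10/Fc libraries and 2 PBS libraries from mouse B16F10 melanomas collected 18 days after inoculation. C57BL/6 hosts of both groups were irradiated at 4 Gy and given naive Thy1.1+ PMEL T cells, whose transgenic receptor recognises a melanocyte antigen (labelled B6.Cg-Thy1a/Cy with the transgene Tg(TcraTcrb)8Rest/J). All received activated Thy1.2+ PMEL CD8+ cells on day 10, followed by 4 injections beside the tumour every other day. These held 20 µg of IL-10/Fc, an interleukin-10 fused to an antibody Fc part, in one group and PBS in the other. From each tumour sample, 500 Thy1.1+ PD-1+ TIM-3+ CD8+ cells, which the labels call terminally exhausted, were sorted at a purity above 99%. Whether the libraries came from separate mice is not given in the labels, and the p-values then measure spread between libraries that may be technical. Counts on listed genes summed to 28235203 to 36941814 per library in IL-10/Fc and to 26738871 and 28774401 in PBS. Levels below are CPM, counts scaled to the library total, with TMM factors, and 3 counts equalled 0.0812 to 0.112 CPM before that scaling. The markers of the sorted cells (Cd8a, Cd8b1, Cd3d, Cd3e, Cd3g, Thy1, Pdcd1, Havcr2 and Tox) were all listed and summed to 12855 to 14521 CPM in IL-10/Fc and to 6901 and 10778 CPM in PBS. In the histone genes, PBS replicate 1 was above PBS replicate 2 in 45 of 57 members, and in 0 of the 5 H1 genes. The share over all genes was not counted. The PBS libraries differed more than 2-fold in 12.5% of the members tested, against 26.5% of all genes tested. Values without one of these libraries are given for many of the results that it touches.

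Of the 57 genes, 49 lie in the Hist1 cluster on chromosome 13, 4 in Hist2 on chromosome 3, 3 in Hist3 on chromosome 11 and 1 in Hist4 on chromosome 6 (GRCm38). The Hist1 genes fell into a block of 22 at chr13:21715763-22043676, a block of 26 at chr13:23531050-23764358, and Hist1h2al alone at chr13:51202688-51203065. In GENCODE M21, 52 of the 57 had a single exon in their longest transcript, and 2 were annotated as pseudogenes (Hist1h2aj and Hist3h2bb-ps). A stem-loop of 16 bases was found in the longest annotated transcript of 39 members. In 9 of the others that transcript ended at the stop codon, so that no stem-loop could be found in it. All 10 H4 stem-loops began with GGCCC, and all 29 of the other types began with GGCTC. The most frequent form, in 22 members of H1, H2A, H2B and H3, is shown by Hist2h3c2 and Hist1h2ac, and 5 members of H2B and H3 had the variant of Hist1h3e. Of the 10 H4 stem-loops, 7 had the form of Hist1h4d, and the form of Hist2h4 was shared with Hist1h4i. The lines give the DNA strand of each mRNA 5′ to 3′ from GENCODE M21 on GRCm38, chosen because histone mRNAs cut there carry no poly(A) tail. The annotated transcripts of these genes run on past the stem-loop, by 377, 2010, 369, 770 and 1257 bases in the order printed. The capitals mark the stem-loop, at chr3:96238485-96238500 (minus strand), chr13:23683477-23683492 (minus), chr13:23561903-23561918 (minus), chr13:23581950-23581965 (plus) and chr3:96262939-96262954 (minus).
Hist2h3c2: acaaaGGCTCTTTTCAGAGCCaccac
Hist1h2ac: ccaaaGGCTCTTTTCAGAGCCcccac
Hist1h3e: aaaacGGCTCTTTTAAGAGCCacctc
Hist1h4d: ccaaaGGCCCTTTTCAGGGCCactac
Hist2h4: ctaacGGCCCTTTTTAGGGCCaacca

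RefSeq promoters (GRCm38.p6, 250 bases before to 50 after the start) were matched to 49 members. The letters CCAAT, which the factor NF-Y is known to bind, stood in 42 of the 49, or 85.7%, on either strand, against 37.4% of all 32544 promoters of the same length. All promoters of H1, H2A, H2B and H3 genes held it, against 3 of 10 of H4. The TATA box letters TATAAA stood in 29 of 49 (59.2%), against 13.6% of all promoters. They were counted at any position and on either strand, so a match need not be a TATA box. The octamer ATTTGCAT, known as a site of Oct-1 in H2B promoters, stood in 9 of 49 (18.4%), against 1.75% of all promoters. These 9 were 5 of 12 H2A and 4 of 14 H2B promoters. Matches to different motifs may overlap, and promoters of neighbouring genes on opposite strands share bases. A pair is shown because it carries this contrast: the promoter of Hist1h2ac at chr13:23683910-23684209 (minus strand), which lies between this gene and Hist1h2bc, and that of Hist1h4m at chr13:21811496-21811795 (plus strand). Capitals mark each match of the motifs on either strand, and overlapping neighbours may run together.
Hist1h2ac: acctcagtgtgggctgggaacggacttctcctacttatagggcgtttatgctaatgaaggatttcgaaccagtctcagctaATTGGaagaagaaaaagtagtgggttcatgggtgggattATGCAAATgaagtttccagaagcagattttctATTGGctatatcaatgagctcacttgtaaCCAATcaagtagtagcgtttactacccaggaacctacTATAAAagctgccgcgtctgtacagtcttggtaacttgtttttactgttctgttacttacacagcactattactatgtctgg
Hist1h4m: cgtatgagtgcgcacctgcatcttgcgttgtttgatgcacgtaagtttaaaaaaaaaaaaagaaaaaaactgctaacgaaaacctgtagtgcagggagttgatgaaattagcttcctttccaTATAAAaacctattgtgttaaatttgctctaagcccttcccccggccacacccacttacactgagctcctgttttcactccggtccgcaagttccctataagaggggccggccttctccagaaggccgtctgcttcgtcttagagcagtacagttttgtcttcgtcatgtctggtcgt

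No histone gene differed between IL-10/Fc and PBS beyond the threshold. The summed histone level was 971, 1236, 1523 and 1495 CPM in IL-10/Fc replicates 1 to 4, against 1599 and 1454 CPM in PBS replicates 1 and 2. The groups overlapped, and IL-10/Fc replicate 1 was the lowest of the 6 libraries. The means were 1306 ± 258 CPM in IL-10/Fc (SD, n = 4) and 1527 ± 103 CPM in PBS (SD, n = 2), a log2 ratio of -0.22. A bulk library cannot tell fewer cells that make histone mRNA from less of it per cell. After Benjamini-Hochberg adjustment of edgeR's quasi-likelihood p over all 15477 genes tested, 0 of the 56 members tested passed an adjusted p of 0.05, against 0.00646% of all genes (1 gene). The smallest adjusted p of a member was 0.389. At an unadjusted p under 0.05 there was 1 member, lower in IL-10/Fc, where 12.7% of all genes tested reached that level (7.2% higher and 5.52% lower). In the authors' deposited table, which called 842 of the 15898 listed genes (5.3%), 0 members were called and the smallest adjusted p was 0.211.

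The log2 fold changes leaned to one side, though none passed. They were below 0 in 41 of 56 members and above 0 in 15, where 50.7% of all genes tested lay below 0. Their median was -0.25, against -0.01 over all genes tested. Scaled by library size only, the median of all genes moved to -0.18 and that of the members to -0.43. Of the 6 libraries left out in turn, PBS replicate 1 moved the median most: without it, 33 members were below 0 and 23 above, with a median of -0.052 (0.04 over all genes), and without PBS replicate 2 the median was -0.35 (0.04 over all genes). Without IL-10/Fc replicate 1, the lowest library, the median was -0.15, with 41 members below 0. The libraries of both groups did not overlap in 8 members, all lower in IL-10/Fc, which is 14.3% of those tested against 23.6% of all genes (11.5% lower). These 8 were Hist1h2ac, Hist1h2bm, Hist1h3d, Hist1h3h, Hist1h3i, Hist2h3c2, Hist3h2ba and the pseudogene Hist3h2bb-ps. Many members share sequence, so their directions are not independent of each other.

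**Figure D1:**
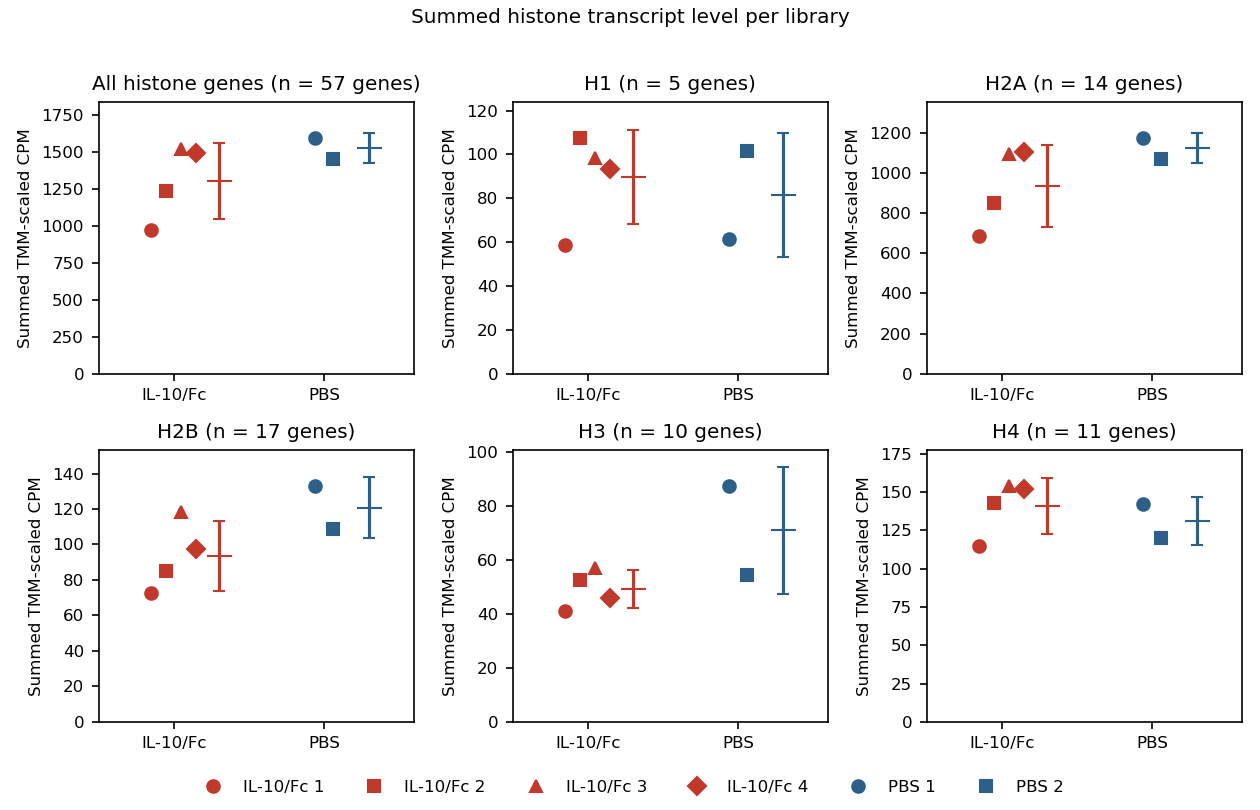
Summed TMM-scaled CPM per library for all 57 histone genes and for each histone type, with IL-10/Fc libraries in red and PBS libraries in blue; the crossed bars give the group mean ± SD (n = 4 and n = 2). In every panel the groups overlap, and IL-10/Fc replicate 1 is the lowest library of its group.

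The histone types did not share 1 direction. The medians were 0.43 for H1 (4 of 5 genes above 0), -0.23 for H2A (12 of 14 below 0), -0.35 for H2B (17 of 17 below 0), -0.41 for H3 (9 of 10 below 0) and 0.17 for H4 (8 of 10 above 0, but 5 of 10 and a median of -0.00 when scaled by library size only). No test of the difference between types was made, and 0 members of any type passed. Without PBS replicate 1 the medians of H1, H2A, H2B, H3 and H4 were 0.18, -0.14, -0.25, -0.11 and 0.30. Without PBS replicate 2 they were 0.75, -0.34, -0.52, -0.70 and 0.01. With a replicate block they were 0.03 (3 of 5 H1 genes above 0), -0.52, -0.65, -0.48 and 0.18. Replicates 3 and 4 exist in IL-10/Fc only and add nothing to the contrast with that block.

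**Figure D2:**
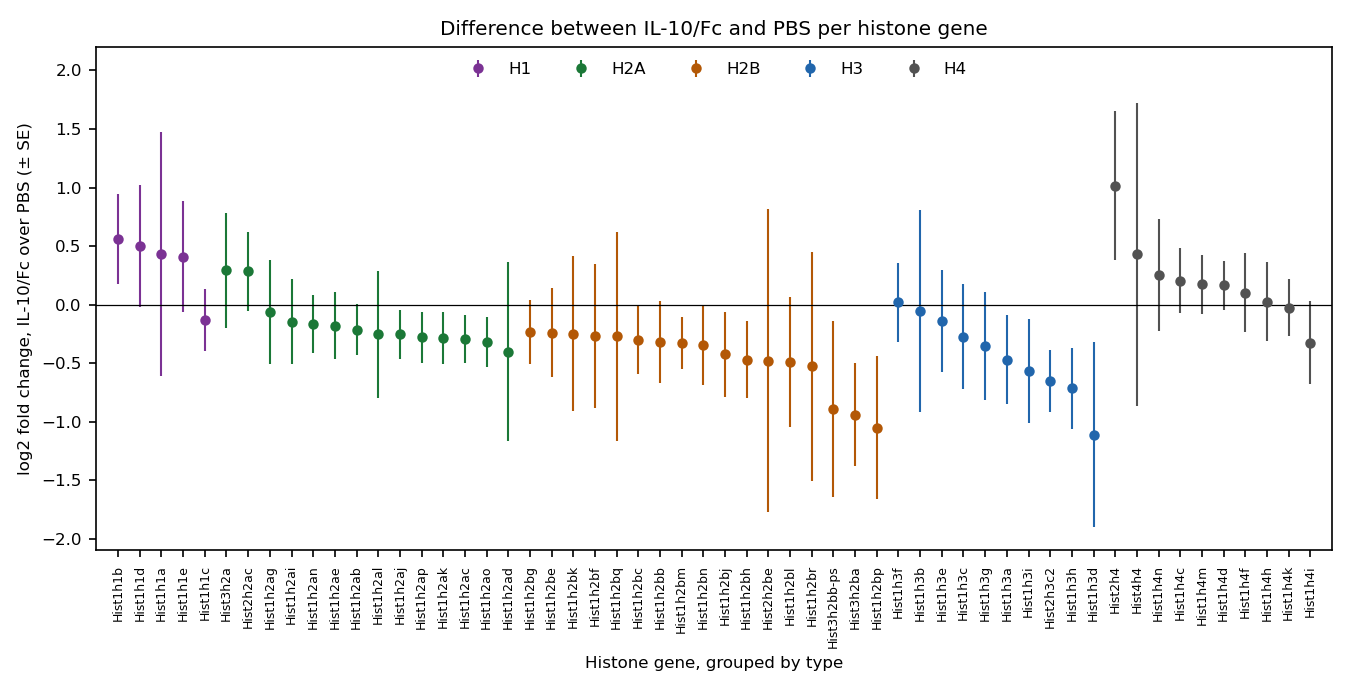
Log2 fold change of IL-10/Fc over PBS with its standard error for the 56 histone genes tested, grouped by histone type and sorted within it. The H2B genes all lie below 0 and 4 of 5 H1 genes lie above it, while no gene passed the adjusted test.

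H1 binds the DNA that links nucleosomes. The 5 genes summed to 58.8, 108, 98.6 and 93.5 CPM in IL-10/Fc, against 61.6 and 101 CPM in PBS. Replicate 1 of each group was low and the others lay together, so the spread within each group exceeded the gap between them. Hist1h1c (H1.2; chr13:23738808-23740367) held 55.2% of the H1 level, with 34.8, 55.3, 47.7 and 48.2 CPM in IL-10/Fc and 38.2 and 63.7 CPM in PBS. Its log2 fold change was -0.13 (SE 0.27). Hist1h1b (H1.5; chr13:21779883-21780625) had 12.2, 26.4, 30.3 and 25.7 CPM in IL-10/Fc and 14.1 and 18.0 CPM in PBS. In IL-10/Fc, 3 libraries lay above both PBS libraries and replicate 1 below them, with a log2 fold change of 0.56 (SE 0.38). Hist1h1e (H1.4) ranged from 9.15 to 22.4 CPM in IL-10/Fc and stood at 6.86 and 15.9 CPM in PBS. Hist1h1d (H1.3) ranged from 2.18 to 6.12 CPM in IL-10/Fc and stood at 2.11 and 3.50 CPM in PBS. Hist1h1a (H1.1) stayed between 0.0698 and 0.648 CPM in IL-10/Fc and at 0.340 and 0.359 CPM in PBS, near the counting floor. Their log2 fold changes were 0.41 (SE 0.47), 0.50 (SE 0.52) and 0.43 (SE 1.05), and all 5 groups overlapped. Benjamini-Hochberg adjusted p from edgeR's quasi-likelihood test ran from 0.615 to 0.924 among the H1 genes.

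H2A pairs with H2B in the nucleosome core, and its genes took most of the histone counts: 68.6% to 73.9% of summed histone CPM in IL-10/Fc and 73.4% and 73.5% in PBS. The H2A sum was 684, 847, 1095 and 1105 CPM in IL-10/Fc, against 1175 and 1069 CPM in PBS. Hist1h2ap (chr13:21833026-21833507) had 239, 303, 395 and 395 CPM in IL-10/Fc, against 424 and 384 CPM in PBS. Replicates 3 and 4 of IL-10/Fc lay between the PBS libraries and replicates 1 and 2 below them. Its log2 fold change was -0.28 (SE 0.22). Per kilobase of gene model it had the highest mean level of all members, 739 CPM per kb. Hist1h2ao (chr13:21810465-21810944) had 129, 150, 208 and 203 CPM in IL-10/Fc and 223 and 207 CPM in PBS, a log2 fold change of -0.32 (SE 0.21). Hist1h2ak (chr13:21753435-21753827) had 87.2, 115, 148 and 144 CPM in IL-10/Fc and 157 and 144 CPM in PBS, a log2 fold change of -0.29 (SE 0.22). Hist1h2ac (chr13:23683449-23683924) had 68.8, 79.5, 106 and 107 CPM in IL-10/Fc and 112 and 110 CPM in PBS. It was the 1 H2A gene whose groups did not overlap, by a margin that was small beside the spread among the IL-10/Fc libraries, and its log2 fold change was -0.30 (SE 0.21).

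The leading H2A copies kept nearly the same proportions in every library. Relative to Hist1h2ap, the counts of Hist1h2ao were 49.5% to 54.1%, of Hist1h2ak 36.6% to 37.9%, of Hist1h2ac 26.3% to 28.8% and of Hist1h2ab 20.8% to 22.6% over the 6 libraries. These 5 and the pseudogene Hist1h2aj held 92.3% of H2A and 66.6% of all histone CPM. Hist1h2ao and Hist1h2ap have the same coding sequence (100% identity over 393 bases), and 93.5% and 93.1% of the 50-base stretches of their longest transcripts also occur in a transcript of another gene. Over all members, the median share of such stretches was 49.3%. How reads that match several copies were assigned is not stated in the sources used here, so single H2A copies are uncertain and the group is the firmer unit. The remaining H2A genes included Hist2h2ac and Hist3h2a, given with their clusters, Hist1h2ae and Hist1h2an with means of 32.0 and 18.1 CPM, and 4 more with means of 1.02 to 2.92 CPM.

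H2B genes all had log2 fold changes below 0, from -1.05 to -0.24, with all libraries, and 14 of 17 did without either PBS library. Their sum was 72.4, 85.2, 118 and 97.6 CPM in IL-10/Fc, against 133 and 108 CPM in PBS. Of the IL-10/Fc libraries only replicate 3 exceeded a PBS library. Hist1h2bc (chr13:23684199-23692488), which is known to give a polyadenylated transcript, had 22.0, 29.6, 45.4 and 28.5 CPM in IL-10/Fc, against 38.9 and 38.4 CPM in PBS, a log2 fold change of -0.30 (SE 0.29). Hist1h2bj (chr13:22043214-22043676) had 9.58, 7.71, 14.7 and 14.2 CPM in IL-10/Fc, against 19.4 and 11.6 CPM in PBS, with PBS replicate 1 above all others. Hist1h2bm (chr13:21722098-21722478) had 10.0, 10.2, 12.4 and 12.3 CPM in IL-10/Fc, against 15.2 and 13.0 CPM in PBS. Its groups did not overlap, those of Hist1h2bj did, and the log2 fold changes were -0.33 (SE 0.22) for Hist1h2bm and -0.42 (SE 0.36) for Hist1h2bj. The value of Hist1h2bj was -0.012 without PBS replicate 1 and -0.75 without PBS replicate 2. Hist1h2bg ranged from 8.21 to 12.4 CPM in IL-10/Fc and stood at 14.2 and 9.90 CPM in PBS, a log2 fold change of -0.24 (SE 0.27) that turned to 0.045 without PBS replicate 1. Hist1h2bp had 0.905, 0.977, 1.33 and 2.62 CPM in IL-10/Fc, against 3.91 and 2.16 CPM in PBS, a log2 fold change of -1.05 (SE 0.61). The smallest adjusted p of an H2B gene was 0.450 (edgeR's quasi-likelihood test, Benjamini-Hochberg).

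H3 pairs with H4 at the centre of the nucleosome. The H3 genes summed to 41.3, 52.7, 57.2 and 46.1 CPM in IL-10/Fc, against 87.6 and 54.5 CPM in PBS. PBS replicate 1 stood alone above the rest, and the log2 ratio of group means, -0.53, was -0.15 without it and -0.83 without PBS replicate 2. Hist2h3c2 (chr3:96238108-96239127), the member with the smallest p, had 17.4, 23.8, 27.2 and 23.2 CPM in IL-10/Fc, against 44.6 and 27.5 CPM in PBS. The highest IL-10/Fc library lay just under PBS replicate 2. Its log2 fold change was -0.65 (SE 0.26, adjusted p = 0.389, edgeR's quasi-likelihood test, Benjamini-Hochberg), and it was -0.27 without PBS replicate 1. It held 48.2% of the H3 level. Hist1h3h (chr13:21717659-21718069) had 4.29, 6.45, 6.66 and 6.13 CPM in IL-10/Fc, against 12.5 and 6.80 CPM in PBS, a log2 fold change of -0.72 (SE 0.35) that was -0.21 without PBS replicate 1. Hist1h3a had 4.42, 4.29, 4.25 and 2.79 CPM in IL-10/Fc and 6.93 and 3.99 CPM in PBS, with overlapping groups and a log2 fold change of -0.47 (SE 0.38), or -0.019 without PBS replicate 1. Hist1h3e ranged from 2.31 to 4.99 CPM in IL-10/Fc and stood at 5.20 and 3.43 CPM in PBS, a log2 fold change of -0.14 (SE 0.44).

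H4 took a share of 10.1% to 11.8% of summed histone CPM in IL-10/Fc and of 8.90% and 8.27% in PBS, which did not overlap. The shares of H1, H2A, H2B and H3 did overlap, and a share also depends on the levels of the other types. The H4 sum overlapped, at 115, 143, 154 and 152 CPM in IL-10/Fc, against 142 and 120 CPM in PBS. Hist1h4d (chr13:23581598-23581990) gave 51.0% of the H4 level, with 54.2, 67.6, 83.4 and 86.3 CPM in IL-10/Fc and 67.0 and 63.2 CPM in PBS. Of its IL-10/Fc libraries, 3 were above both PBS libraries and replicate 1 was below them. Its log2 fold change was 0.16 (SE 0.21), and -0.0074 when scaled by library size only. Hist1h4i had 9.38, 19.4, 16.5 and 17.3 CPM in IL-10/Fc and 24.4 and 14.8 CPM in PBS, a log2 fold change of -0.33 (SE 0.35). Hist1h4m ranged from 10.4 to 14.9 CPM in IL-10/Fc and stood at 12.2 and 9.54 CPM in PBS. Hist1h4k ranged from 9.82 to 12.5 CPM in IL-10/Fc and stood at 13.2 and 9.38 CPM in PBS. For both the groups overlapped, and the log2 fold changes were 0.17 (SE 0.25) and -0.03 (SE 0.25). The 1 member not tested, Hist1h4a, was filtered out for low counts, at 0.114 to 0.314 CPM in IL-10/Fc and 0.577 and 0.0654 CPM in PBS.

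**Figure D3:**
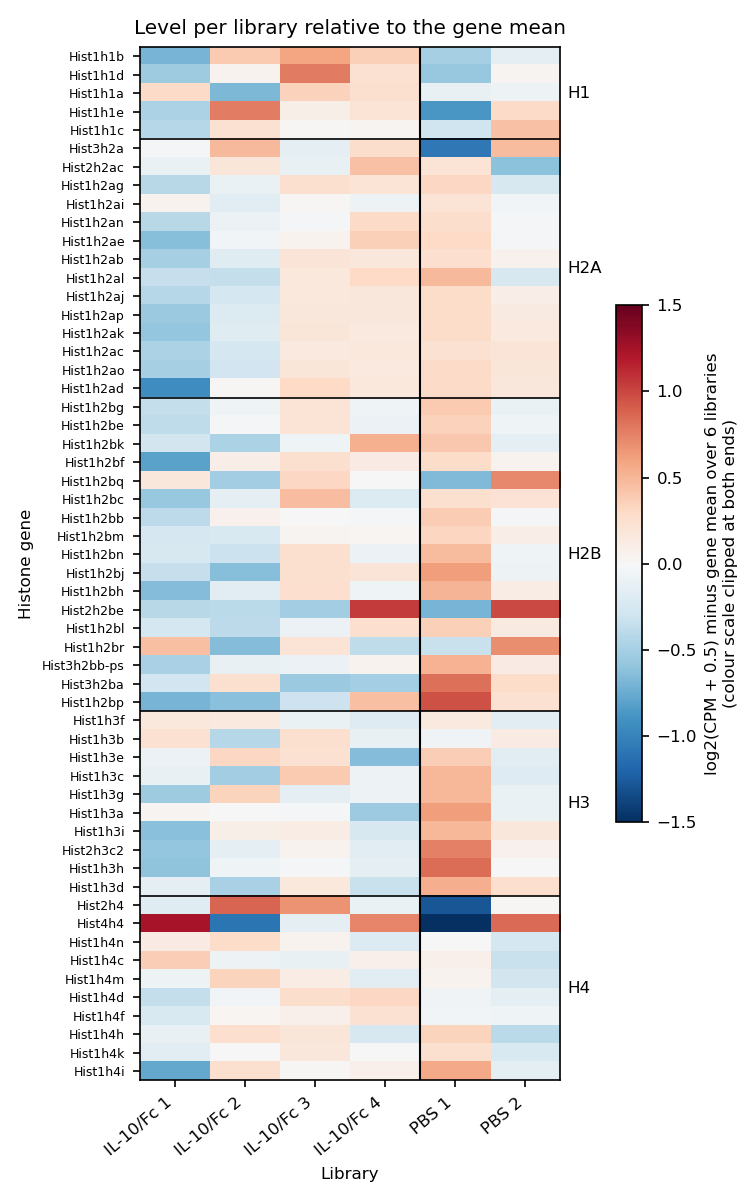
Log2(CPM + 0.5) of each tested histone gene minus its mean over the 6 libraries, with rows grouped by histone type and IL-10/Fc libraries left of the line. IL-10/Fc replicate 1 is low across most H2A and H2B genes and PBS replicate 1 is high across H2B and H3, while H1 genes are low in PBS replicate 1.

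By cluster, the Hist1 genes summed to 928, 1179, 1471 and 1439 CPM in IL-10/Fc, against 1532 and 1398 CPM in PBS. The median log2 fold change was -0.28 in the block nearer the start of chromosome 13 (19 of 22 genes below 0) and -0.21 in the next (17 of 25 below 0). The Hist2 genes summed to 29.6, 41.8, 42.0 and 41.2 CPM in IL-10/Fc, against 57.0 and 38.6 CPM in PBS. Besides Hist2h3c2, this cluster holds Hist2h2ac, Hist2h2be and Hist2h4. Hist2h2ac (H2A; chr3:96220361-96220880) had 9.05, 11.1, 8.93 and 13.3 CPM in IL-10/Fc, against 11.2 and 6.18 CPM in PBS, a log2 fold change of 0.29 (SE 0.34). Hist2h4 (H4; chr3:96261682-96263311) had 2.92, 6.59, 5.69 and 3.11 CPM in IL-10/Fc, against 1.09 and 3.43 CPM in PBS. Its log2 fold change of 1.02 (SE 0.64) was the highest of any member, and it was 0.41 without PBS replicate 1. In the Hist3 cluster, Hist3h2ba (H2B; chr11:58948920-58949533) had 2.28, 3.49, 1.80 and 1.88 CPM in IL-10/Fc, against 5.47 and 3.59 CPM in PBS, a log2 fold change of -0.94 (SE 0.44). Hist3h2bb-ps, a pseudogene, ranged from 0.235 to 0.570 CPM in IL-10/Fc and stood at 0.985 and 0.621 CPM in PBS. Hist3h2a (H2A; chr11:58954685-58956830), known to give polyadenylated transcripts, had 7.54, 11.0, 6.92 and 9.32 CPM in IL-10/Fc, against 3.36 and 10.8 CPM in PBS. The groups of the first 2 did not overlap and those of Hist3h2a did, with log2 fold changes of -0.89 (SE 0.75) for Hist3h2bb-ps and 0.29 (SE 0.49) for Hist3h2a. Hist4h4 (chr6:136801553-136804415), alone in its cluster, had 3.95, 0.384, 1.22 and 2.65 CPM in IL-10/Fc, against 0.136 and 2.91 CPM in PBS, so that its libraries spread over more than the groups differed.

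H2A and H2B genes often lie back to back. In 12 pairs the starts lay 172 to 295 bases apart on opposite strands, and every pair joined an H2A with an H2B gene. Both log2 fold changes were below 0 in 10 of the 12, and the exceptions were Hist2h2ac with Hist2h2be and Hist3h2a with Hist3h2bb-ps. This count follows from the directions by type and adds nothing about the pairs. All H2B genes were below 0, and Hist2h2ac and Hist3h2a were the only H2A genes above 0. The H2A partner had the higher mean level per kilobase in 10 of the 12. In the pair whose shared promoter is printed above, Hist1h2ac had 204 CPM per kb and Hist1h2bc 29.2 CPM per kb.

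Members were also grouped by known polyadenylated forms and by the 3′ end of the deposited gene model, which need not be that of the mRNA. The 4 members with known polyadenylated forms, Hist1h1c, Hist1h2bc, Hist2h2be and Hist3h2a, summed to 64.6, 96.2, 100 and 87.6 CPM in IL-10/Fc, against 80.6 and 114 CPM in PBS. Their log2 fold changes had the median -0.22, with 3 of 4 below 0. In 25 members the deposited gene model ended within 100 bases after the stem-loop, and these had a median of -0.21. Some of these run further in GENCODE M21, as does Hist1h2ac with 2010 bases past the stem-loop. The classes therefore describe the deposited models only. In the 10 tested members whose model ran further past it, the median was -0.14, and in 10 members whose model held coding bases only it was -0.31. The 11 members in none of these classes had a median of -0.35, with 10 below 0. The classes overlapped in range, and 0 genes of any class passed.

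The PBS libraries differed from each other by more than 2-fold in 7 of the 56 tested members (12.5%), against 26.5% of all genes tested. All 7 were higher in PBS replicate 2, against the direction of most members: Hist4h4, Hist2h2be, Hist1h2bq, Hist1h2br, Hist3h2a, Hist2h4 and Hist1h1e. Hist2h2be (chr3:96221119-96223738) had 0.268, 0.279, 0.216 and 1.62 CPM in IL-10/Fc, against 0.136 and 1.54 CPM in PBS. One library of each group was high and the rest lay close to the floor, and its log2 fold change was -0.48 (SE 1.29), or 2.11 without PBS replicate 2. Hist1h2bq and Hist1h2br, with 97.3% and 88.5% of 50-base stretches found elsewhere, ranged from 0.174 to 1.01 CPM in IL-10/Fc and from 0.272 to 1.50 CPM in PBS. For 6 of the 7 the deposited gene model spans 1630 to 3788 bases, and for Hist1h1e 748 bases. Hist1h2bp, Hist1h2bc and Hist1h2be, with spans of 1753, 8290 and 37383 bases, were higher in PBS replicate 1. They had 3.91, 38.9 and 4.45 CPM there, against 2.16, 38.4 and 3.20 CPM in PBS replicate 2. Spans of genes with more than 1 exon include introns.

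**Figure D4:**
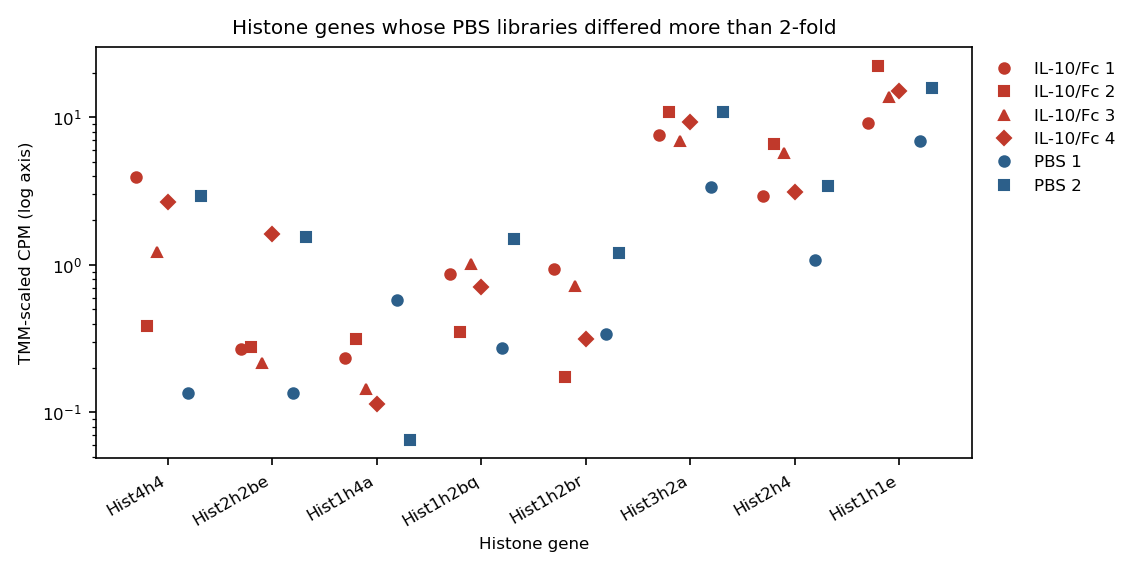
TMM-scaled CPM per library, on a log axis, of the 8 histone genes whose PBS libraries differed more than 2-fold, in order of that difference; IL-10/Fc libraries stand left of PBS. PBS replicate 2 is above PBS replicate 1 in every gene but Hist1h4a.

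Genes that work with the histones were counted in the same fit, and 0 passed in either direction in any list. Of 26 S-phase genes, 22 had log2 fold changes below 0 and 4 above, with a median of -0.38. Their sum was 1386, 1622, 2111 and 1653 CPM in IL-10/Fc, against 1932 and 2240 CPM in PBS. IL-10/Fc replicate 1 was the lowest library here as in the histone sum, but PBS replicate 2 exceeded PBS replicate 1, the opposite of the histone genes. Mcm5, a subunit of the replicative helicase, had 45.1, 41.0, 52.2 and 48.4 CPM in IL-10/Fc, against 83.6 and 70.5 CPM in PBS. Its log2 fold change was -0.72 (SE 0.15), and the authors' deposited table called it lower (adjusted p = 0.00204). For Mcm7 of the same helicase the value was -0.68 (SE 0.21), and for the DNA ligase gene Lig1 it was -0.62 (SE 0.24).

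Of 15 genes that transcribe, cut or degrade histone mRNA, 6 were above 0 and 9 below, with a median of -0.23. Cstf2, whose product takes part in cutting both polyadenylated and histone transcripts, had 25.2, 29.0, 24.1 and 23.3 CPM in IL-10/Fc, against 54.5 and 34.4 CPM in PBS, a log2 fold change of -0.81 (SE 0.22). Zfp473, a factor of the U7 complex, ranged from 0.419 to 2.68 CPM in IL-10/Fc and stood at 4.62 and 8.56 CPM in PBS. Mif4gd, a partner of the stem-loop binding protein, ranged from 212 to 273 CPM in IL-10/Fc and stood at 158 and 212 CPM in PBS. The stem-loop binding protein gene Slbp, named after its values were seen, had 366, 409, 446 and 468 CPM in IL-10/Fc, against 414 and 473 CPM in PBS, a log2 fold change of -0.07 (SE 0.13) with overlapping groups. The authors' deposited table called Cstf2 lower (adjusted p = 0.0312).

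Of 19 chaperone and assembly genes, 4 were above 0 and 15 below, with a median of -0.13. Tonsl, which binds new histones at replication forks, ranged from 530 to 632 CPM in IL-10/Fc and stood at 346 and 413 CPM in PBS, a log2 fold change of 0.58 (SE 0.12). Chaf1b, a subunit of chromatin assembly factor 1, ranged from 17.5 to 29.6 CPM in IL-10/Fc and stood at 38.1 and 41.5 CPM in PBS, a log2 fold change of -0.64 (SE 0.24). Rbbp7, a histone-binding subunit of several complexes, had a log2 fold change of -0.46 (SE 0.17). The groups did not overlap in these 3, which were named for their small p, and overlapped in the other 16 of the list. They did not overlap in 9 of the 26 S-phase genes and 8 of the 15 genes for histone mRNA. Among the replacement histone genes below, they did not overlap in 3 of 9. Over all genes 23.6% did not overlap.

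Of 11 replacement histone genes, which are made outside S phase or serve special chromatin, 9 were listed, with 3 above 0 and 6 below and a median of -0.16. H2afy, which encodes macroH2A1, ranged from 118 to 138 CPM in IL-10/Fc and stood at 100 and 94.2 CPM in PBS, a log2 fold change of 0.39 (SE 0.11). H2afx, the variant that is phosphorylated at DNA breaks, ranged from 19.6 to 30.3 CPM in IL-10/Fc and stood at 48.1 and 31.2 CPM in PBS, a log2 fold change of -0.78 (SE 0.27). Cenpa, the H3 variant of centromeres, ranged from 171 to 313 CPM in IL-10/Fc and stood at 377 and 360 CPM in PBS, a log2 fold change of -0.64 (SE 0.25). The authors' deposited table called H2afy higher (adjusted p = 0.0435) and Tonsl higher (adjusted p = 0.00467).

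Markers of other cells were read in the same libraries. Macrophage markers (11 of 11 listed, 10 with a log2 fold change above 0) summed to 149 to 643 CPM in IL-10/Fc and to 151 and 395 CPM in PBS, which overlapped through Lyz2, with 301 CPM in PBS replicate 2. Their mean log2 CPM did not overlap, at 2.83 to 4.79 in IL-10/Fc and 2.43 and 2.62 in PBS, and their median log2 fold change was 1.77. Mrc1 had 0 counts in both PBS libraries and Itgam in 1 of them. B cell markers (2 of 6 listed, Ighm and Cd79b) summed to 3.92 to 15.5 CPM in IL-10/Fc and to 42.5 and 42.8 CPM in PBS. In PBS nearly all of it was Ighm. Of these 2 genes, 1 had a log2 fold change above 0 and 1 below, and the groups overlapped in neither. Melanoma markers (4 of 6 listed) summed to 4.76 to 9.04 CPM in IL-10/Fc and to 0.645 and 6.34 CPM in PBS. Their part in the histone values was not tested.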

How the data were processed

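RNA from 500 sorted cells per library was converted by Smart-Seq2, which primes cDNA on poly(A), does not record strand and uses no molecular identifiers, so floors cover counting error only. The submitters' processing notes name DESeq2, Cuffdiff, TopHat2 2.1.1, Trimmomatic, Cufflinks 2.2.1 and Bowtie2 2.2.9, and the build GRCm38. For the counting program, the name was not given in the sources used here. The authors deposited whole-number counts per gene and library. The series table also holds, per the file headers, the authors' log2 fold changes with standard errors, p-values, a Wald score and the mean normalized count as a signal; of these, only fold changes and p-values were used.

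Counts of all 15898 listed genes were filtered with filterByExpr, scaled by TMM and tested with edgeR 4.0.16 (R 4.3.3; glmQLFit with the robust option, glmQLFTest, two-sided, group as the only term), with Benjamini-Hochberg adjustment over the 15477 genes kept. The standard error is the log2 fold change over the root of F. Mean levels per kilobase use the deposited span of single-exon genes and otherwise GENCODE M21 exons. Members were matched to GENCODE M21 by ID (55) or symbol (2). Sequences came from GENCODE M21 transcripts and RefSeq promoters.

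The members, gene lists and naming rule were chosen with earlier results of these data known. The rule named all H1 genes, all Hist2, Hist3 and Hist4 genes, the 4 members with the highest CPM of each other type, the 5 members with the smallest p per direction, members known to be polyadenylated, and the 3 genes with the smallest p of each other list. Of a list of 3 germ cell histone genes, 0 were listed. Alternatives were DESeq2 size factors, library size only, the DESeq2 Wald test, no count filter, at least 1 CPM in 2 libraries, dropping the robust option, a replicate block, and leaving out each of the 6 libraries.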

Additional observations from a re-analysis of the deposited data

Results flagged for a closer look

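Among the 4 IL-10/Fc libraries, 67 genes and sums were checked for 1 library far from the other 3 by the Dixon gap ratio at its 95% critical value, and 5 lay beyond it. Chance places about 1 in 20 groups there. Hist1h1a was lowest in IL-10/Fc replicate 2, at 0.0698 CPM against 0.570 CPM in the nearest library. Hist1h2bf was lowest in IL-10/Fc replicate 1, at 0.603 CPM against 1.57 CPM. Hist1h3a was lowest in IL-10/Fc replicate 4, at 2.79 CPM against 4.25 CPM. Hist2h2be was highest in IL-10/Fc replicate 4, at 1.62 CPM against 0.279 CPM. The Hist2 cluster sum was lowest in IL-10/Fc replicate 1, at 29.6 CPM against 41.2 CPM.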

How the results depend on the processing

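No histone gene passed under any alternative. Of 374 fold changes of the 29 named members under the alternatives, 357 kept their direction. Several alternatives hardly move a fold change, so this count says little about them. With DESeq2 size factors and without the robust option the members' median stayed at -0.25. Genes past the threshold numbered 1, but 757 with the DESeq2 Wald test and 0 with library size only, without the robust option and with a replicate block. The members' median log2 fold change, -0.25, was -0.43 with library size only and -0.48 with the block, and Hist1h4d was -0.0074 and -0.10 there. The block contrast rests on replicates 1 and 2 of each group, since IL-10/Fc replicates 3 and 4 have no PBS library of that number. With the block Hist1h1a was -0.61 and Hist1h3e 0.015. Between libraries with the same replicate number in their titles, deviations correlated at 0.06 (number 1) and 0.01 (number 2). With 2 PBS libraries, whose deviations mirror each other, this cannot show whether samples were paired. The count columns number the PBS libraries differently from the titles, and pairing by those numbers was not tested. Unadjusted p under 0.05 (edgeR's quasi-likelihood test) was reached by 3 of 56 members with the block, where 1207 of 15477 genes tested reached it. With library size only, 3 of 56 members and 2299 of 15477 genes tested reached it.

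Leaving out single libraries gave 0 to 16 genes past the threshold, 16 without PBS replicate 2. The members' median ran from -0.35 to -0.052, the H3 sum from -0.83 to -0.15, the Hist2 sum from -0.56 to -0.00043 and the Hist4 sum from -0.50 to 3.92 (log2 ratios). Ranges of the H1, H4 and Hist3 sums crossed 0, at -0.18 to 0.54, -0.013 to 0.23 and -0.39 to 0.23. Among named members, those that crossed 0 were -0.25 to 0.24 for Hist1h4k, -0.50 to 3.88 for Hist4h4, -0.41 to 0.19 for Hist1h3e, -0.073 to 1.14 for Hist1h1e, -0.47 to 0.045 for Hist1h2bg, -0.64 to 0.077 for Hist1h4i, -0.32 to 1.37 for Hist3h2a, -0.45 to 0.28 for Hist1h1c, -0.082 to 0.78 for Hist2h2ac and -1.35 to 2.11 for Hist2h2be. A lone PBS library was taken to have the spread of the IL-10/Fc group. The cause of these shifts was not tested. At this depth 3 counts equal 0.0812 to 0.112 CPM, which limits Hist1h1a, Hist1h4a, Hist2h2be and Hist3h2bb-ps.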
